A study of Mus musculus with 4 samples.

Results

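A set of 9 genes best known from the projection neurons of the striatum was followed in RNA sequencing libraries of mouse prelimbic cortex. They are Penk, Pdyn, Tac1, Drd1, Drd2, Adora2a, Gpr6, Ppp1r1b and Rgs9, and were found in the 2 deposited tables by their gene symbols. Of the 9, 8 are among the 12318 genes of the stress table and 6 are among the 15396 genes of the virus table. Drd1, the D1 dopamine receptor, is in neither table, and Pdyn and Ppp1r1b are not in the virus table. Both tables hold only genes whose values differ by at least 0.32 on the log2 scale or are at 0 in 1 library. A missing gene has no value here. Its levels may have differed by less than that, or it may be missing for another reason, and these cannot be told apart. Counts and medians below cover listed genes only, and so only genes with such a difference.

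All 4 samples were prelimbic tissue of C57BL/6 mice aged 8 weeks, with 1 sample in each of 4 groups. The stress pair sets a sample of the stress-susceptible phenotype against a sample of the control phenotype. Both carry the tag of chronic social defeat, a model in which mice are attacked repeatedly by an aggressor, so the labels do not say plainly whether the control mice were defeated. The virus pair sets AAV-CDYL against AAV-GFP. Adeno-associated virus (AAV) delivered either the chromatin corepressor CDYL or green fluorescent protein. The sources used here state neither the promoter of the virus nor how many mice went into a sample. Each group has 1 library, so differences cannot be set against a spread between replicates and were not tested. For short, the susceptible and AAV-CDYL libraries are called treated, and the control and AAV-GFP libraries are called comparison libraries. For the stress pair these words do not say that the mice differed in exposure to defeat.

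Striatal projection neurons form a direct and an indirect pathway. Direct-pathway neurons carry D1 dopamine receptors and make substance P and dynorphin, whereas indirect-pathway neurons carry D2 dopamine and type 2a adenosine receptors and make enkephalin. Both use the phosphatase inhibitor DARPP-32 and the G-protein regulator RGS9 to shape the response to dopamine. None of the genes is exclusive to the striatum: cortical interneurons make enkephalin, dynorphin and substance P, and deep cortical layers hold dopamine receptors and DARPP-32. In bulk tissue, fewer cells of a type and less RNA per cell cannot be told apart.

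Levels are in FPKM, the fragments on each kilobase of a transcript after scaling for library size. Effective depth, taken from the spacing of low values, was 14300000 fragments for control and between 22600000 and 23800000 for the other libraries. A transcript of 2 kb at FPKM 1 was then backed by 28.6 fragments in control and by 45.2 to 47.7 in the others. Cdyl was at 2.68 FPKM with AAV-GFP against 1052 with AAV-CDYL, in the direction of the labels. Neurod6, a transcription factor of cortical excitatory neurons, had 87.1 FPKM in control, 53.3 in susceptible, 84.7 with AAV-GFP and 54.4 with AAV-CDYL. Cux2, a transcription factor of upper cortical layers, went the other way in the stress pair, with 9.45 FPKM in control and 18.6 in susceptible, and had 17.5 with AAV-GFP and 11.5 with AAV-CDYL. Isl1, a transcription factor that defines direct-pathway striatal neurons, was listed at 0 in control and AAV-GFP and reached 0.142 FPKM in susceptible and 0.117 with AAV-CDYL. Six3, a striatal transcription factor, was also listed at 0 in control and AAV-GFP, with 0.280 and 0.216 FPKM in the other libraries. Both genes were thus under 1 FPKM in every library. Chrm4, a better expressed direct-pathway gene, went the other way, from 14.0 to 10.02 FPKM in the stress pair and from 15.3 to 9.92 in the virus pair. Of the list that holds Six3, 11 of 13 listed genes stood above control and 4 of 18 above AAV-GFP.

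In the susceptible library 7 of the 8 listed genes stood above control, and Tac1 stood below. A gene with 1 FPKM or more in at least 1 library of a pair was counted as higher or lower when its values of log2(FPKM + 1) lay 1.5-fold or further apart. By this size rule 7 of the 8 were higher and 0 lower, against 18.9% of all 5334 such genes higher and 10.8% lower. Drd2, Adora2a and Gpr6 were under 1 FPKM in control and passed the floor only through the susceptible library, so their direction was fixed by the floor. Of the 5 genes that reached 1 FPKM in control, 4 were higher, against 13.5% of all genes at that level. The median difference of the 8 genes was 0.92 on the log2(FPKM + 1) scale, where that of all genes above the floor was 0.24 and that of all listed genes 0.057. An unadjusted p under 0.05 was given to 5 of the 8 genes in the authors' deposited table, all higher, against 3.12% of all genes higher at that threshold, and 0 of the 8 had q under 0.05.

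**Figure D1:**
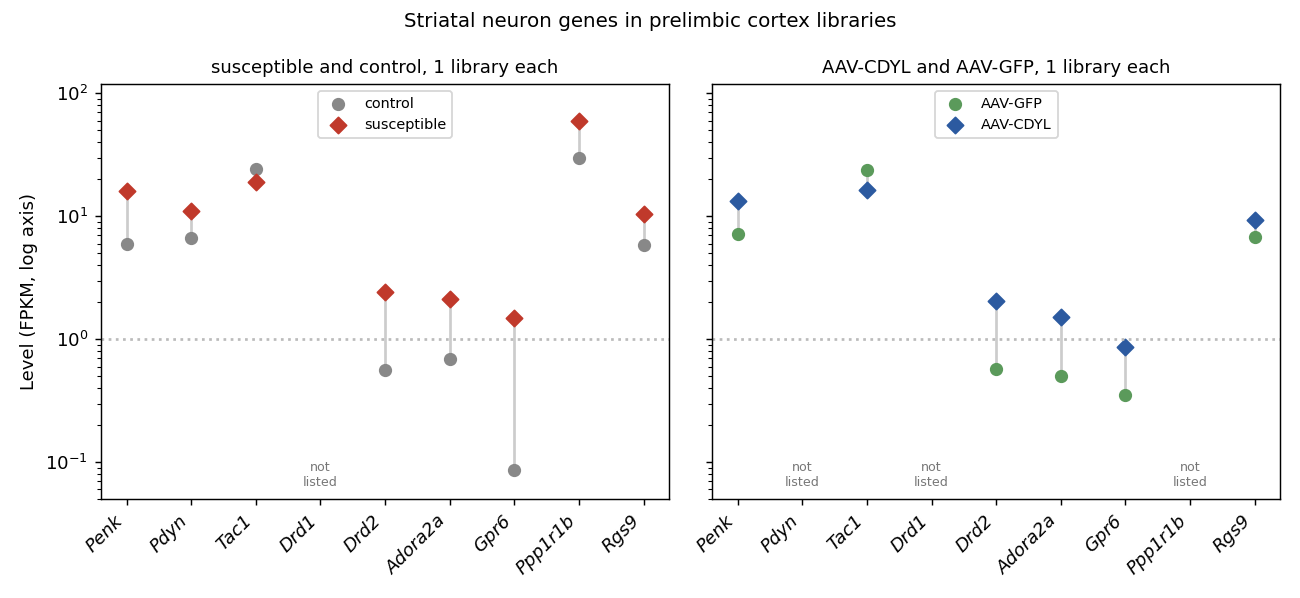
Level of each gene in FPKM (log axis) in the stress pair (left) and the virus pair (right), with 1 point per library and a dotted line at 1 FPKM. Circles are control or AAV-GFP, diamonds are susceptible or AAV-CDYL, and Tac1 is the only listed gene whose diamond lies below its circle in either panel.

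The levels covered a wide range. In control, Ppp1r1b was highest at 29.8 FPKM and Gpr6 lowest at 0.0862. The order in control ran from Ppp1r1b through Tac1, Pdyn, Penk, Rgs9, Adora2a and Drd2 to Gpr6. In susceptible, Penk passed Pdyn and Drd2 passed Adora2a, and the other places were as in control. With AAV-GFP and with AAV-CDYL the order of the 6 listed genes was the same, Tac1, Penk, Rgs9, Drd2, Adora2a and Gpr6. Without replicates the spread is unknown, so neighbours such as Penk and Rgs9 in control, at 5.93 and 5.88 FPKM, cannot be ranked with confidence.

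The 3 peptide precursors did not move together. Penk encodes proenkephalin, the source of the enkephalins, opioid peptides of indirect-pathway neurons (ENSMUSG00000045573, chromosome 4, 4133531 to 4138819). Its level was 5.93 FPKM in the control library and 15.9 in the susceptible one, and 7.14 with AAV-GFP against 13.2 with AAV-CDYL. Both treated libraries were thus above both comparison libraries. The ratio was 2.69 in the stress pair (95% counting interval 2.20 to 3.29, from about 123 and 533 fragments) and 1.85 in the virus pair (1.57 to 2.17). These intervals cover counting error only, not the spread between mice. For Penk the authors' deposited table gives p = 0.0036 and q = 0.476 in the stress pair, and p = 0.231 in the virus pair. The exons of A830012C17Rik cover 14.3% of the exonic bases of Penk, and that gene had 0.0465 FPKM in control and was listed at 0 in susceptible.

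Pdyn encodes prodynorphin, the precursor of the dynorphins, opioid peptides of direct-pathway neurons (chromosome 2, 129686565 to 129699844). The control library had 6.67 FPKM and the susceptible library 11.1, a ratio of 1.67 (counting interval 1.43 to 1.95). Susceptible was thus the higher library, with p = 0.0519 and q = 0.999 in the authors' deposited table.

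Tac1 encodes the precursor of substance P and neurokinin A (chromosome 6, 7554879 to 7565834). Its level was 24.1 FPKM in the control library and 19.0 in the susceptible one, and 23.7 with AAV-GFP against 16.4 with AAV-CDYL. The ratios were 0.787 (counting interval 0.690 to 0.894) and 0.694 (0.615 to 0.781). Both treated libraries were lower than their comparison library, and neither difference reached the size rule. Tac1 has, in the authors' deposited table, p = 0.389 in the stress pair and 0.478 in the virus pair. Within a library, the ratio of the Penk level to the Tac1 level was 0.246 in control and 0.841 in susceptible, and 0.302 with AAV-GFP and 0.804 with AAV-CDYL. Penk was thus below Tac1 in all 4 libraries and closest to it in the susceptible and AAV-CDYL libraries. The ratio of Pdyn to Tac1 was 0.277 in control and 0.586 in susceptible.

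The 3 listed receptors were the lowest of the genes and had the largest ratios. Drd2, the inhibitory D2 dopamine receptor of indirect-pathway neurons (chromosome 9, 49340662 to 49407214), had 0.558 FPKM in the control library and 2.44 in the susceptible one. In the virus pair it had 0.577 with AAV-GFP and 2.05 with AAV-CDYL. The comparison libraries of the 2 pairs lay close to each other, and both treated libraries lay above them. The ratios were 4.38 (counting interval 2.78 to 7.51, from about 20 and 144 fragments) and 3.55 (2.43 to 5.44). The authors' deposited table gives Drd2 p = 0.0381 and q = 0.999 in the stress pair and p = 0.166 in the virus pair.

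Adora2a, the adenosine receptor 2a, which raises cAMP and is paired with D2 receptors on the same striatal neurons (chromosome 10, 75316943 to 75334788), followed Drd2 closely. Its level was 0.687 FPKM in the control library and 2.11 in the susceptible one, and 0.507 with AAV-GFP against 1.503 with AAV-CDYL. The ratios were 3.07 (counting interval 2.02 to 5.001) and 2.97 (1.93 to 4.59). The ratio of the Adora2a level to the Drd2 level stayed between 0.733 and 1.23 in the 4 libraries. Adora2a has p = 0.0287 for the stress pair and 0.247 for the virus pair in the authors' deposited table.

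Gpr6, a constitutively active receptor that signals through cAMP in indirect-pathway neurons (chromosome 10, 41069989 to 41072285), had 0.0862 FPKM in the control library and 1.49 in the susceptible one. The control value rests on about 2 fragments, and the ratio of 17.3 has a counting interval of 5.01 to 159. With AAV-GFP it had 0.354 FPKM and with AAV-CDYL 0.873, a ratio of 2.46 (1.32 to 5.01, from about 14 and 37 fragments). Both virus values were under the floor of 1 FPKM, so Gpr6 was not counted in that pair. Gpr6 has p = 0.161 and 0.380 for the 2 pairs in the authors' deposited table.

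Promoter sequence was taken from RefSeq (GRCm38.p6, the assembly behind mm10), which in the table used has entries for 6 of the 9 genes, but not for Penk, Adora2a and Ppp1r1b. The sequences of Gpr6, Drd2 and Rgs9 are shown because these genes stood higher in both treated libraries, and that of Tac1 because it stood lower. Each is printed 5′ to 3′ up to the first annotated transcript start, with capitals for motif matches.
Gpr6, chr10:41072291-41072540, strand minus: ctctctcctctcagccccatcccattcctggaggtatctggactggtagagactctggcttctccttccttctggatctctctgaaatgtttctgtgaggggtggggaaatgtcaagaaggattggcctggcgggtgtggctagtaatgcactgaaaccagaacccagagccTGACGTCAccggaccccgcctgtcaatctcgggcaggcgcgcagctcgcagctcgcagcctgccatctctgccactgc
Drd2, chr9:49340153-49340402, strand plus: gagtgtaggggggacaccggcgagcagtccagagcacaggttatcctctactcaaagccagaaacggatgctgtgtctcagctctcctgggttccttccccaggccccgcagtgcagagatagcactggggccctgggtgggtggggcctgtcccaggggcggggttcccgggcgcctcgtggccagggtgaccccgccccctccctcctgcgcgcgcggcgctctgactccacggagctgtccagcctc
Rgs9, chr11:109298182-109298431, strand minus: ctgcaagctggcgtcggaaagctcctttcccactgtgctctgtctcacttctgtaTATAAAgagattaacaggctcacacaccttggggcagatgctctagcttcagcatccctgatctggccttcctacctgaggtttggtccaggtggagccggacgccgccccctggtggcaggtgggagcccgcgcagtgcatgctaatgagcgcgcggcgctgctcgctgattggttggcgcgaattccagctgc
Tac1, chr6:7554811-7554878, strand plus: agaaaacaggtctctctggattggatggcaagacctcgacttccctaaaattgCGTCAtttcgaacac

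The motifs searched on both strands in windows of 300 bases, from 250 before to 50 after the RefSeq start, were the cAMP response element TGACGTCA, its part TGACG, the AP-1 motif TGANTCA, the EGR motif GCGNGGGCG and the TATA motif TATAAA. These are letters bound by factors that follow cAMP and neuronal activity, and by the core transcription machinery. Gpr6 holds the full cAMP response element at position -78 from the start, which 1.79% of 32851 promoters hold; the matches of TGACG there lie inside it. Tac1 holds TGACG at positions -197 and -43, the first of which is in the stretch shown, and 20.8% of all promoters hold this part. Rgs9 holds TATAAA at position -195, which 13.6% of all promoters hold. Drd2, Pdyn and Drd1 hold none of the 5 motifs in these windows. The AP-1 and EGR motifs, in 7.81% and 5.55% of all promoters, are in none of the 6 genes' windows. These are matches of letters in short windows and say nothing about binding.

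The 2 intracellular regulators were higher in susceptible by less than the receptors. Ppp1r1b encodes DARPP-32, which inhibits protein phosphatase 1 once protein kinase A has phosphorylated it (ENSMUSG00000061718, chromosome 11, 98348404 to 98357796). The control library had 29.8 FPKM and the susceptible library 59.1, a ratio of 1.98 (counting interval 1.83 to 2.14). This is the most precisely counted difference of the 9 genes, from about 853 and 2730 fragments. Its p is 0.00385 and its q 0.496 in the authors' deposited table. The exons of 1700003D09Rik cover 15.7% of its exonic bases, and that gene had 0.0580 FPKM in control against 0.357 in susceptible.

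Rgs9 encodes a protein that speeds the shut-off of G proteins downstream of dopamine and opioid receptors (chromosome 11, 109225355 to 109298129). Its level was 5.88 FPKM in the control library and 10.4 in the susceptible one, and 6.85 with AAV-GFP against 9.25 with AAV-CDYL. The ratios were 1.77 (counting interval 1.54 to 2.03) and 1.35 (1.21 to 1.51), and the second did not reach the size rule. Rgs9 has p = 0.0323 for the stress pair and 0.517 for the virus pair in the authors' deposited table. The ratio of the Ppp1r1b level to the Rgs9 level was 5.07 in control and 5.69 in susceptible.

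**Figure D2:**
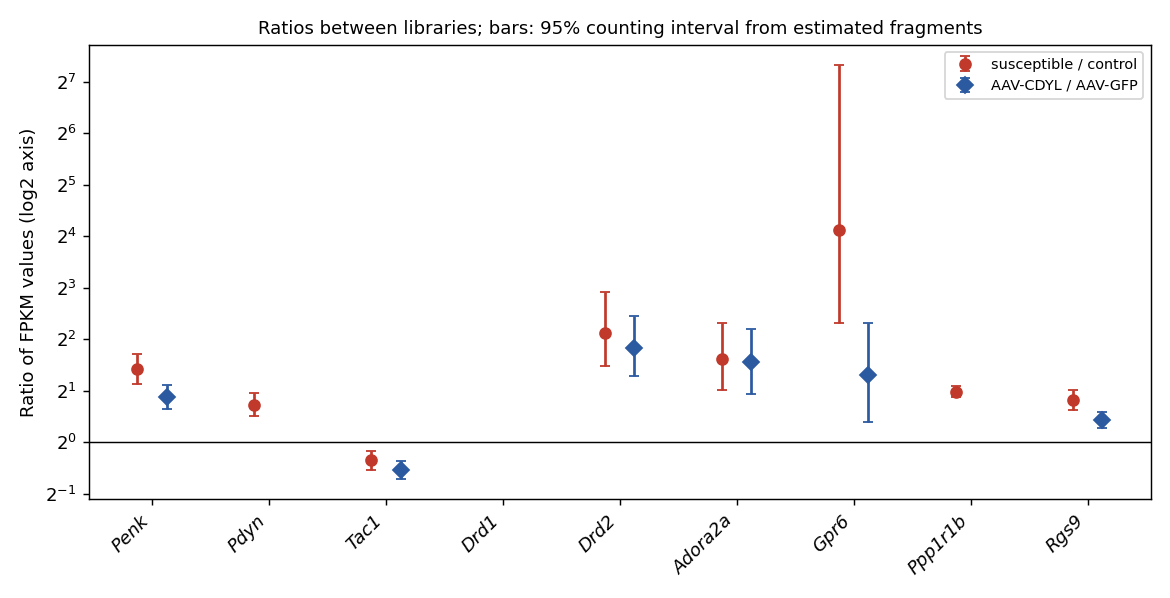
Ratio of FPKM values between the 2 libraries of each pair (log2 axis), with bars for the 95% counting interval from estimated fragments. The receptors Drd2, Adora2a and Gpr6 have the highest ratios and the widest intervals, and Tac1 lies below 1 in both pairs.

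In the AAV-CDYL library 5 of the 6 listed genes stood above AAV-GFP and Tac1 stood below. By the size rule Penk, Drd2 and Adora2a were higher and 0 were lower of the 5 genes above the floor, against 31.3% of all 8047 genes higher and 14.4% lower. Drd2 and Adora2a lay below 1 FPKM with AAV-GFP and passed the floor only through the AAV-CDYL library. Of the 3 genes that reached 1 FPKM with AAV-GFP, Penk alone was higher, against 21.2% of all genes at that level. The median difference of the 6 listed genes was 0.60 on the log2(FPKM + 1) scale, against 0.30 for all genes above the floor and 0.070 for all listed genes. An unadjusted p under 0.05 was given to 0 of the 6 genes in the authors' deposited table, against 5.16% of all genes higher at that threshold. These counts depend on the scale. With differences centred on the median of listed genes above the floor (0.30), Drd2 alone was higher and Tac1 was lower.

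The split over all genes moved with the scale too. In the stress pair 1006 genes were higher and 575 lower, and 532 and 1918 after centring on the median (0.24), under which 5 of the 8 genes were higher and 0 lower. In the virus pair 2516 were higher and 1159 lower, and 1630 and 3572 after that centring. The listed pan-neuronal genes, used by most neurons, had medians of -0.47 in the stress pair and -0.57 in the virus pair. Centred on them, 2791 genes were higher and 114 lower in the stress pair, and 4295 and 71 in the virus pair. Under that centring 7 of the 8 and 4 of the 5 genes were higher, against 52.3% and 53.4% of all genes above the floor. The difference of Tac1 turned to 0.14 and 0.065.

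The 2 pairs share no library, so the 6 genes listed in both tables can be set side by side. Tac1 was lower and the other 5 were higher in both pairs. Drd2, Adora2a and Gpr6 were under 1 FPKM in control and in AAV-GFP, so the floor fixed the sign of those counted. The 3 genes at the floor in both of these libraries, Penk, Tac1 and Rgs9, each had the same sign in both pairs, as did 82.6% of the 2706 such genes. Of these 3, Penk was higher by the size rule in both pairs. For each of these 6 genes the log2 difference was smaller in the virus pair than in the stress pair in absolute size, except for Tac1, at -0.33 and -0.50. The tables were normalized separately, so levels across them are only described. The control and AAV-GFP levels lay within 1.36-fold of each other for Penk, Tac1, Drd2, Adora2a and Rgs9, and differed by 4.11-fold for Gpr6. The susceptible and AAV-CDYL levels of the same 5 genes lay within 1.40-fold, and those of Gpr6 differed by 1.71-fold.

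Other genes of striatal projection neurons followed these genes in part in the stress pair, and most did not in the virus pair. Of 24 other genes enriched in both pathways, 13 were listed in the stress table. Above control stood 11 of the 13, against 58.6% of all listed genes. Of the 11 above the floor, 4 were higher and 2 lower, against 18.9% and 10.8% of all such genes. At the floor in control, 3 of 10 were higher, against 13.5% of all genes at that level. The median over the 13 was 0.38. It became 0.13 when centred on the median of listed genes above the floor and 0.85 when centred on pan-neuronal genes. Syndig1l, a membrane protein gene enriched in the striatum, was higher, at 0.610 and 1.91 FPKM. Dlx6 and Strip2 were higher too, at 2.72 and 5.08 FPKM and at 2.24 and 4.26. Scn4b, a sodium channel subunit, was lower at 12.1 and 6.53 FPKM, as was the transcription factor Bcl11b, which deep cortical layers also use, at 26.9 and 16.6.

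Of those 24 genes, 18 were listed in the virus table, and 4 of the 18 stood above AAV-GFP, against 59.2% of all listed genes. Among the 16 above the floor 0 were higher and 4 lower, against 31.3% and 14.4% of all such genes. The median over the 18 was -0.46, which became -0.75 and 0.11 under the same centrings. Scn4b stood at 9.19 and 4.09 FPKM. Gng7, a G-protein subunit that couples to adenylyl cyclase in striatum, stood at 40.4 and 22.8, and Pde10a, a striatal phosphodiesterase, at 14.96 and 9.58. Syndig1l was above AAV-GFP, at 0.625 and 1.30 FPKM, but did not reach the size rule. Dlx6 stood at 5.18 and 3.63 FPKM, the reverse of the stress pair and within the size rule. Strip2 is not in the virus table.

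Further pathway genes were few. Of 6 other direct-pathway genes 3 were listed in each table and 1 passed the floor, Chrm4, the M4 muscarinic receptor. It had 14.0 FPKM in control and 10.02 in susceptible, and 15.3 and 9.92 in the virus pair. Chrm4 was thus below the comparison library in both and within the size rule. The other 2 listed, Isl1 and Slc35d3, were under the floor and stood above the comparison library in both pairs. Slc35d3 was at 0.0824 and 0.442 FPKM in the stress pair and 0.0695 and 0.164 in the virus pair. Of 6 other indirect-pathway genes, 4 of the 5 listed passed the floor in the stress table and 0 were higher or lower. Of the same 6, 3 passed the floor in the virus table, of which Oprd1 and Gprin3 were lower. Oprd1, the delta opioid receptor on which enkephalins act, stood at 8.59 and 5.55 FPKM in the stress pair and 9.58 and 3.86 in the virus pair, opposite in direction to Penk in both.

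Of 10 other opioid genes, 5 were listed in the stress table, with 0 higher and 1 lower, and 9 in the virus table, with 0 higher and 2 lower. Oprd1, lower in the virus pair, is counted here and among the indirect-pathway genes. Pcsk1, a protease that cuts prohormones such as proenkephalin, was lower in both pairs, at 19.4 and 11.5 FPKM and at 21.8 and 12.5. Oprk1, the kappa receptor on which dynorphins act, stood at 3.46 and 2.48 FPKM in the stress pair and 3.52 and 2.41 in the virus pair, within the size rule. Among 5 other tachykinin genes, Tac2, the neurokinin B precursor, was higher in susceptible, at 6.9997 and 11.8 FPKM, the reverse of Tac1. Tacr1, the substance P receptor, was listed in the virus table only, at 1.03 and 0.723 FPKM.

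Of 10 other dopamine genes, 1 of the 3 above the floor was higher in susceptible and 0 lower, and 0 of 5 passed the size rule in either direction in the virus pair. The gene higher in susceptible was Ddc, the last enzyme of dopamine synthesis. Th, the first enzyme, stood at 0.998 and 1.52 FPKM in the stress pair and at 1.13 and 1.49 in the virus pair. Of 16 genes of cAMP signalling and RGS9 partners, 0 of 6 were higher and 1 lower in susceptible, and 0 of 9 were higher and 5 lower with AAV-CDYL. Pde10a, lower with AAV-CDYL, is also counted among the other striatal genes above, and Adcy5, Gnal and Pde1b are in both lists too. Rgs7bp, the membrane anchor of RGS9, was lower in both pairs, at 61.5 and 39.8 FPKM and at 57.9 and 30.8. Gnb5, the obligate partner of RGS9, stood at 115 and 67.5 FPKM in the virus pair. Both partners thus lay opposite in direction to Rgs9.

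**Figure D3:**
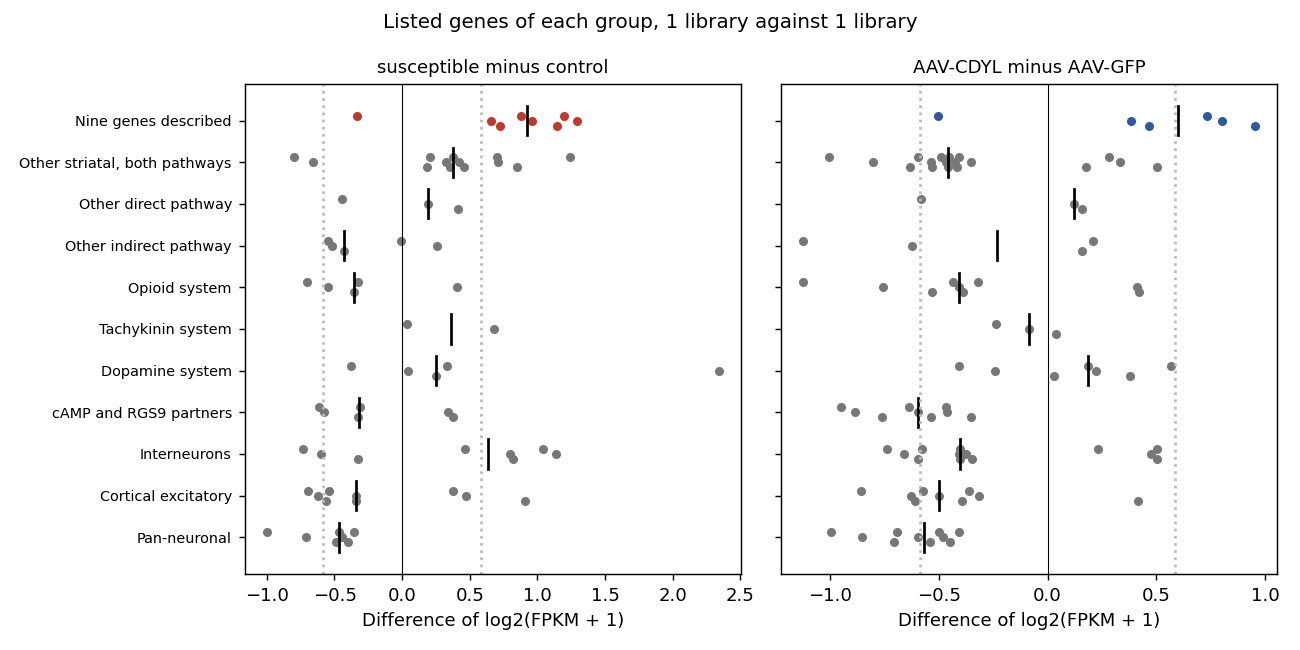
Difference of log2(FPKM + 1) between the 2 libraries of each pair for every listed gene of each group, with a black bar at the group's median and dotted lines at 1.5-fold. Those of the 9 genes that are listed (coloured, 8 in the stress pair and 6 in the virus pair) have medians of 0.92 and 0.60. The other listed striatal genes of both pathways have medians of 0.38 and -0.46.

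Several marker groups moved beside these genes, and their part in the differences was not tested. Of 16 cortical interneuron markers, 4 of 8 were higher and 2 lower in susceptible: Vip at 12.7 and 27.2 FPKM, Htr3a at 0.894 and 3.16, Calb2 at 4.70 and 9.07 and Adarb2 at 1.36 and 3.11 were higher, and Pvalb and Cck were lower. These are genes of interneuron classes in which Penk is also known. In the virus pair 0 of 13 interneuron markers were higher and 3 lower, with Pvalb at 21.7 and 12.6 FPKM. Of the 13, 4 stood above AAV-GFP without reaching the size rule. Among them were Calb2 at 5.52 and 8.25 FPKM, Adarb2 at 1.56 and 2.55 and Htr3a at 1.56 and 2.005. Vip is not in the virus table. Oligodendrocyte markers were higher for 10 of 11 in susceptible, with a summed level of 615 and 1586 FPKM, and for 12 of 12 with AAV-CDYL, at 662 and 2573. Of 15 cortical excitatory and layer markers, 1 of 9 was higher and 2 lower in susceptible, and 0 of 9 were higher and 3 lower with AAV-CDYL.

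Most listed markers of neighbouring regions stood above the comparison library, as did 58.6% and 59.2% of all listed genes in the stress and virus tables. This held for 7 of 7 septum and olfactory markers in the stress pair and 6 of 8 in the virus pair. It held for 6 of 7 and 7 of 7 choroid plexus and ependymal markers. Of 10 septum and olfactory markers, 7 were listed in the stress table with a summed level of 4.48 and 9.23 FPKM, and 8 in the virus table with 12.6 and 18.3. By the size rule 1 of 3 was higher in susceptible and 3 of 5 were higher with AAV-CDYL, with 0 lower in either. Zic1, a septal transcription factor, was higher in both treated libraries, at 1.35 and 3.71 FPKM and at 1.82 and 5.86, and these treated levels exceeded those of Drd2, Adora2a and Gpr6. Zic2, a related factor, stood at 1.82 and 2.62 FPKM in the stress pair and was higher with AAV-CDYL, at 1.62 and 3.81. Trpc4, a cation channel gene listed in the virus table only, made up much of the virus sum and lay the other way, at 7.33 and 5.38 FPKM, within the size rule. Tbx21 and Eomes, which are in the counts above, were listed at 0 in control and AAV-GFP. They stood at 0.0181 and 0.0487 FPKM in susceptible and at 0.506 and 0.307 with AAV-CDYL, all under the floor. Leukocyte markers also stood above AAV-GFP in the AAV-CDYL library, and the part of leukocytes in Tbx21 and Eomes was not tested. Choroid plexus and ependymal markers had summed levels of 1.08 and 4.28 FPKM in the stress pair and 1.35 and 10.1 in the virus pair. By the size rule 2 of 2 and 3 of 3 were higher, each of them under 1 FPKM in control or AAV-GFP and past the floor only through the treated library. Foxj1, a transcription factor of ciliated cells, stood at 0.495 and 1.46 FPKM and at 0.644 and 4.504. Ccdc153, an ependymal marker, was listed at 0 in control and AAV-GFP and reached 1.13 in susceptible and 2.88 with AAV-CDYL. Ttr, the choroid plexus transthyretin gene, was also listed at 0 in control and AAV-GFP, with 0.211 and 0.122 FPKM in the other libraries.

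Glial, vascular and immune markers also moved. In the stress pair the summed levels were 126 and 224 FPKM for astrocyte markers (2 of 5 higher), 74.95 and 218 for endothelial markers (4 of 6), 126 and 129 for microglia markers (0 of 5, 1 lower) and 0.386 and 1.60 for leukocyte markers (1 of 1). In the virus pair they were 206 and 699 (5 of 6, 1 lower), 89.9 and 170 (3 of 6), 138 and 936 (7 of 8) and 1.08 and 40.6 (8 of 8). A sum can rest largely on a single gene, as does the astrocyte sum with AAV-CDYL and the endothelial sum in susceptible. The leukocyte markers counted were under 1 FPKM in control or AAV-GFP and passed the floor only through the treated library, so the floor fixed their direction. Leukocytes can express Penk and Adora2a, and their part in the differences of these genes was not tested. Of the activity-induced genes, 0 of 11 were higher and 8 lower in susceptible, and 0 of 9 higher and 7 lower with AAV-CDYL. Their medians of -1.14 and -0.66 had the sign of Tac1 in both pairs and the opposite sign to Penk.

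Genes with the most similar pair of differences were sought among 2582 others at FPKM 1 or more in all 4 libraries. The measure was the distance to the medians of the 6 genes listed in both tables, 1.01 in the stress pair and 0.60 in the virus pair. The nearest 5 were Idh2, Amy1, Phactr4, Gm9493 and Gm694, at distances of 0.018 to 0.058 on the log2(FPKM + 1) scale. Idh2, a mitochondrial isocitrate dehydrogenase, stood at 13.6 and 28.6 FPKM in the stress pair and 15.0 and 23.5 in the virus pair. Likeness over 2 differences is a weak criterion.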

How the data were processed

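Total RNA of prelimbic tissue was sequenced, 1 library in each of 4 groups. The authors deposited 1 table per pair with FPKM values, p-values and q-values, made with Cuffdiff on mm10, per the submitters' processing notes. The sources used here name neither the aligner nor the annotation, and give no versions. The libraries came from a kit that does not mark strand, per the labels' protocols, so overlapping genes cannot be separated with certainty. The p-values and q-values are the authors' comparison of 1 library with 1 library and are printed only as theirs. Of the genes, 31.2% (stress table) and 33.3% (virus table) share a Cuffdiff locus with another listed gene. The column of the susceptible sample, whose header lacks a letter, was matched to that sample's title, and 0 per-sample columns were left unmapped.

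Differences were taken within a table on the log2(FPKM + 1) scale computed from the deposited FPKM, which understates differences of low genes; ratios are of FPKM values. Depth came from genes whose only GENCODE M21 transcript (mm10 too) is between 3 and 20 kb long, where at least 89.3% of low values lay within 0.15 of a whole step. Fragments behind a value use the longest coding transcript and are approximate, and intervals are exact binomial (Clopper-Pearson) intervals on them. The genes, the 18 lists and the rules were chosen with earlier results of these data known. The rule for named genes took the 9 genes, up to 3 per list and pair with the largest difference, Cdyl, and the 5 most alike. A gene that this rule took is not reported here. Other list genes were named after their values were seen: Isl1, Six3, Oprk1, Adarb2, Cck, Ttr, Trpc4, Tbx21, Eomes, Dlx6, Strip2 and Slc35d3. In 1 of the pairs this also holds for Bcl11b, Syndig1l, Pde10a, Th, Cux2, Pvalb, Calb2 and Htr3a. Alternatives were other pseudocounts, floors, folds, centrings and scalings. Scripts used Python 3.11.15, scipy 1.17.1, matplotlib 3.10.9, pandas 2.3.3 and numpy 2.4.6.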

Additional observations from a re-analysis of the deposited data

How the results depend on the processing

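No paired analysis was possible because each group has 1 sample. In the stress pair the count of 7 higher and 0 lower was the same with pseudocounts of 0.1 and 0.5, without a floor and with upper-quartile scaling. With that scaling 22.9% of all genes above the floor were higher. The share over all genes was not taken for the other pseudocounts or without a floor, so those counts have no background. The count was also 7 and 0 when centred on pan-neuronal genes, where 52.3% of all genes above the floor were higher, against 18.9% uncentred. The count became 5 when centred on the median, where 9.97% of all such genes were higher. With a floor of 1 FPKM in control 4 of the 5 remaining genes were higher, against 13.5% of all genes at that level. A 2-fold rule left 3 higher, and the share over all genes was not taken for it. These were Penk, Drd2 and Gpr6, of which Drd2 and Gpr6 passed the floor only through the susceptible library. In the virus pair the count of 3 higher became 1 with a floor of 1 FPKM in AAV-GFP, where 21.2% of all genes at that level were higher. It became 1 higher with 1 lower when centred on the median, where 20.3% of all genes above the floor were higher. With a 2-fold rule it became 0, and the share over all genes was not taken there either. The median of the stress pair, 0.92, went to 1.39 when centred on pan-neuronal genes and 1.20 with a pseudocount of 0.1. It went to 0.73 with the floor in control and 0.68 when centred on the median. The median of the virus pair, 0.60, went to 0.99 with a pseudocount of 0.1 and 1.17 when centred on pan-neuronal genes. It went to 0.39 with the floor in AAV-GFP and 0.30 when centred on the median. Without Penk, whose exons overlap another gene, it was 0.47, an alternative chosen after seeing the data. In the stress pair, leaving out Penk and Ppp1r1b for the same reason gave 5 higher of 6 and a median of 0.80. No difference of a single gene counted as higher changed sign under any of these alternatives. Depth limits Gpr6 most, with about 2 fragments in control.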
